A study of Mus musculus with 6 samples.

Results

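The genes described here encode 9 myokines, proteins that muscle can release during exercise: Fndc5, Metrnl, Ostn, Il15, Bdnf, Gdf15, Il6, Lif and Fgf21. They were found by symbol, and all 9 are among the 24411 genes listed in the count table. Poly(A) RNA from the soleus (Sol) muscle of 6 male C57BL/6 mice, 1 library each, was sequenced after voluntary wheel running (VWR). WT mice (n = 3) carried floxed Lsd1 alleles without Cre. LSD1-mKO mice (n = 3) carried Lsd1 flox/flox with ACTA1-CreERT2, a tamoxifen-inducible Cre under a human actin promoter that is active in differentiating and differentiated muscle cells, so the other cell types of the whole muscle were not targeted. Both genotypes were 8 weeks old at the start, received tamoxifen at 75 mg/kg on 5 days after 3 days of familiarization, and lived with the wheel for 38 days in all. The mice were off the wheel and fasted before dissection, and no sedentary mice are in the series, so the values compare genotypes after training and say nothing about the effect of running itself.

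Myokines carry signals from the working muscle to itself and to fat, bone, liver and brain. Fndc5 encodes the membrane precursor of irisin, Metrnl encodes meteorin-like, and both are known targets of the coactivator PGC-1α (Ppargc1a) in trained muscle. Interleukin-6 (Il6) and leukemia inhibitory factor (Lif) signal through the shared receptor subunit gp130 and the JAK-STAT pathway, while Fgf21 and Gdf15 are induced by mitochondrial and amino acid stress. LSD1, encoded by Kdm1a, is a histone demethylase that acts mostly on enhancers and promoters.

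The libraries held 8940206 to 13798059 estimated counts. Levels are given as CPM, the counts of a gene scaled to a common library size with TMM normalization, and levels of different genes are compared only as TPM, which also divides by transcript length. A floor of 3 counts corresponded to 0.217 to 0.362 CPM. Kdm1a was 40.5, 38.2 and 33.6 CPM in the WT mice and 14.6, 16.6 and 16.6 CPM in the LSD1-mKO mice, a log2 fold change of -1.23 (SE 0.11, adjusted p = 0.016, edgeR). The genotypes did not overlap, but the call was lost in 4 of the 6 fits with 1 mouse removed (adjusted p 0.111 to 0.209, log2 fold change -1.26 to -1.17) and with the replicate number as a block (adjusted p = 0.299). Markers of both slow and fast fibers were abundant. Mean TPM was 4822 for the slow myosin Myh7, 1554 for the fast myosin Myh1 and 8.13 for Myh4, but 20762 for the fast troponin Tnnt3 against 6995 for the slow Tnnt1. Summed, 5 slow fiber markers gave 22087 to 27047 CPM in WT and 22021 to 28254 CPM in LSD1-mKO, and 6 fast fiber markers gave 19329 to 28366 and 21476 to 26275 CPM. Of these 11 markers, 1 had an unadjusted p under 0.05, the fast fiber gene Actn3, at 91.9, 63.6 and 198 CPM in WT and 497, 165 and 341 CPM in LSD1-mKO (adjusted p = 0.636, edgeR). Summed over 6 fibroblast markers, the level was 988, 2749 and 3698 CPM in WT and 2171, 771 and 970 CPM in LSD1-mKO. In bulk tissue, fewer cells of a type and less RNA per cell cannot be told apart.

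Promoter sequence is shown for Gdf15, the myokine whose genotypes did not overlap, and for Fgf21, the myokine with no count. Both runs are the 250 bases before a RefSeq transcription start in GRCm38.p6, for Gdf15 the outer of 2 starts, written 5′ to 3′ on the gene's own strand. The 8 capitals in Fgf21 mark the reverse complement of TGATGNAA, the composite element that ATF4 and C/EBP proteins bind, 139 to 132 bases upstream of the start.
Gdf15, chr8:70632457-70632706, minus strand: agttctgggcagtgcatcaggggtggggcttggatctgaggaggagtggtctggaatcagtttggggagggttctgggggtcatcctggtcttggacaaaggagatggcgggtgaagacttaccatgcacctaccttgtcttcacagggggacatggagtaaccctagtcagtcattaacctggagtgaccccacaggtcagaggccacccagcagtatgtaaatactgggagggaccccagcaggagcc
Fgf21, chr7:45615491-45615740, minus strand: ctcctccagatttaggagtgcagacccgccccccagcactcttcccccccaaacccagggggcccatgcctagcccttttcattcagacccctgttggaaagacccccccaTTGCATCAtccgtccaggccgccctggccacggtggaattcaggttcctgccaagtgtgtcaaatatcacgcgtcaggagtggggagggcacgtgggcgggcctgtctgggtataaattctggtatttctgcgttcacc
RefSeq windows matched 7 of the 9 genes, with 14 windows in all. Searched on both strands, TGATGNAA was found in 1 of these 14 windows and in 3.45% of 32851 windows of the same length. TCAAGGTCA, the element of the estrogen-related receptors, was found in 0 of the 14 and in 0.387% of all windows.

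The 9 genes covered a wide range of transcript levels. Fndc5 was the highest at 180 ± 33.3 TPM (SD, n = 6), above 94.2% of the genes tested. Ostn followed at 27.2 ± 5.45 TPM and Metrnl at 24.3 ± 8.59 TPM, and the ranges of these neighbours overlapped. Il15 at 4.7 ± 0.831 TPM, Bdnf at 2.81 ± 0.805 TPM and Gdf15 at 1.26 ± 0.944 TPM came next, each overlapping with its neighbour over the 6 mice. The Gdf15 spread spans both genotypes, at 0.507 ± 0.169 TPM in WT and 2 ± 0.718 TPM in LSD1-mKO (SD, n = 3 each). In WT alone, Gdf15 (0.319 to 0.648 TPM) lay below Bdnf (1.79 to 3.24 TPM). In LSD1-mKO alone, Gdf15 overlapped with Bdnf and lay above Il6. Il6 (0.287 ± 0.0878 TPM) and Lif (0.236 ± 0.107 TPM) also overlapped with each other and were at or near the floor. No overlap was seen between Fndc5 and Ostn or between Metrnl and Il15. Fgf21 was listed at 0 in all 6 libraries. The order was the same when lengths were taken from the union of exons.

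**Figure D1:**
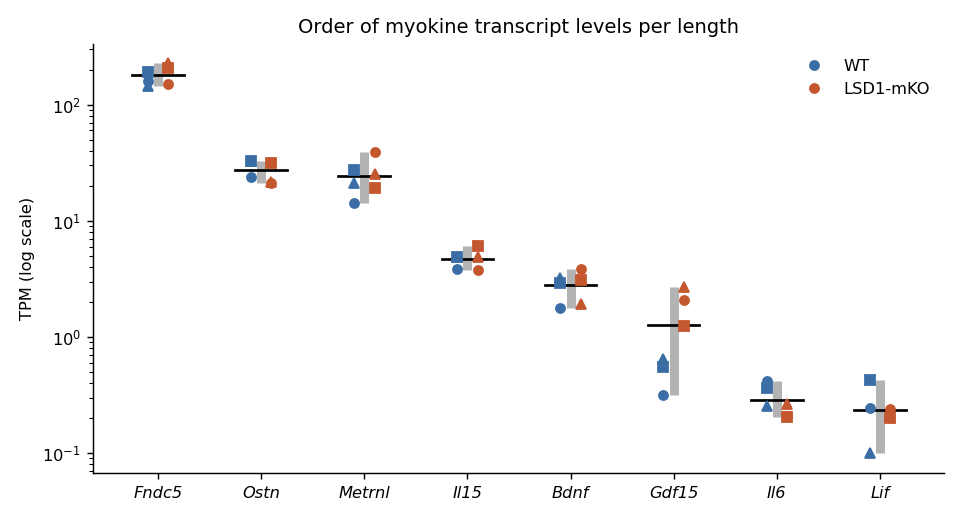
TPM of 8 myokine genes on a log axis, ordered by mean (black line), with 1 point per mouse (circle, square and triangle for replicates 1 to 3, WT left, LSD1-mKO right) and a grey bar from the lowest to the highest mouse. Fndc5 at a mean of 180 TPM stood apart from all others, and Fgf21, at 0 in every library, has no place on the axis.

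No myokine passed the genotype test. Of the 9 genes, 5 passed the filter on low counts (Fndc5, Metrnl, Ostn, Il15 and Bdnf). Of these 5, 0 had an adjusted p under 0.05 in edgeR's quasi-likelihood test, where 0.0156% of the 12828 genes tested did. Those 2 genes were Kdm1a, the floxed gene, and Esr1 (log2 fold change 4.15, adjusted p = 0.000195, edgeR). The name of the Cre transgene includes Esr1, and the part of the transgene in the Esr1 level was not tested. At an unadjusted p under 0.05 the count was also 0 of 5, against 6.4% of all genes. DESeq2 called 0 of the 5 (0.327% of all genes) and had 0 at an unadjusted p under 0.05 (4.5% of all genes), and limma voom likewise had 0 called (0.0234%) and 0 at an unadjusted p under 0.05 (6.31%). For 0 of the 5 were the genotypes without overlap, which held for 12.7% of all genes tested. The 5 had a median log2 fold change (LSD1-mKO over WT) of 0.19, beside -0.02 over all genes tested. The fitted level of 4 was higher in LSD1-mKO and that of Ostn was lower.

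**Figure D2:**
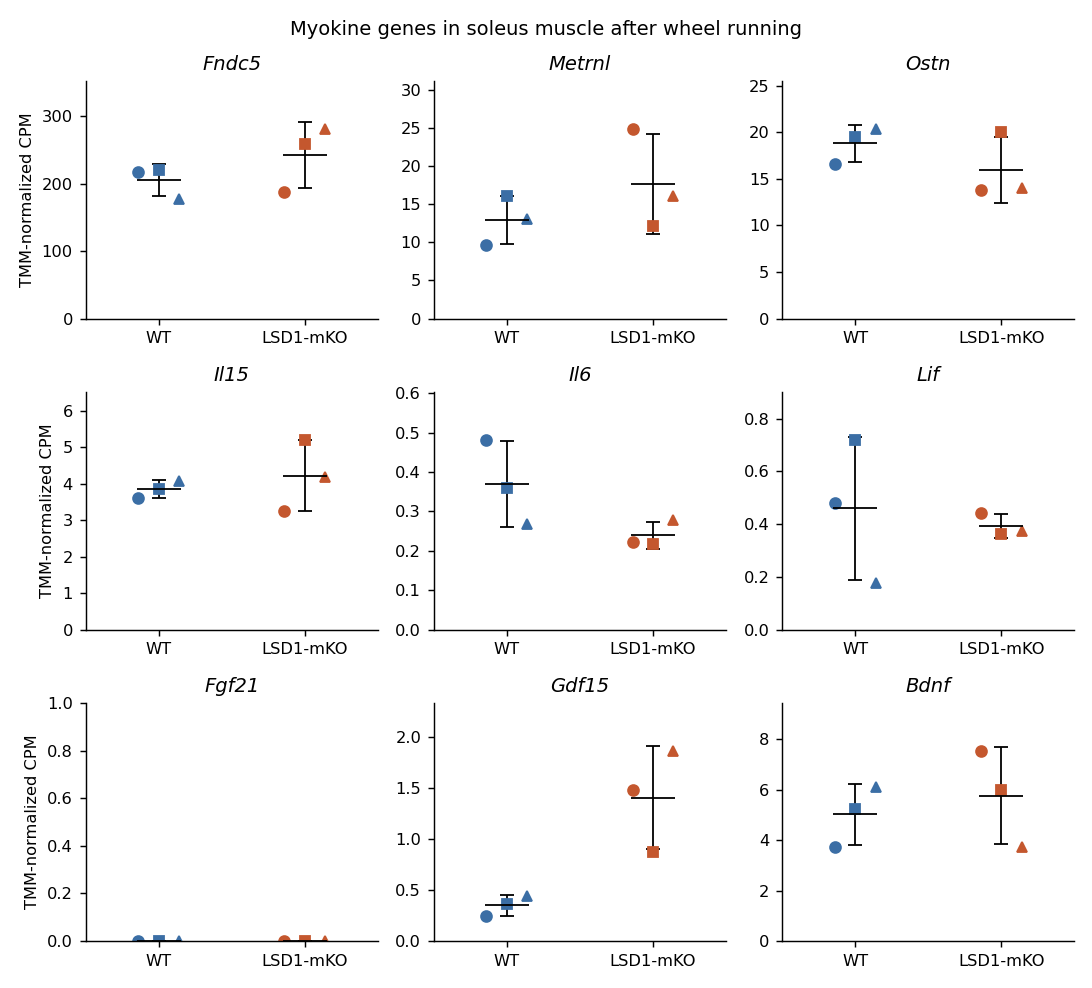
TMM-normalized CPM of each of the 9 myokine genes, 1 point per mouse (circle, square and triangle for replicates 1 to 3), with the mean and SD of 3 mice per genotype and a linear axis from 0. The genotypes are separate for Gdf15, at 0.241 to 0.444 CPM in WT and 0.869 to 1.86 CPM in LSD1-mKO, and overlap for the other expressed genes.

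Fndc5 (chromosome 4, 129136999 to 129144593, plus strand, GRCm38) was 217, 221 and 178 CPM in WT replicates 1 to 3 and 188, 259 and 282 CPM in LSD1-mKO replicates 1 to 3. LSD1-mKO replicates 2 and 3 lay above every WT mouse, while replicate 1 lay inside the WT range. The log2 fold change was 0.24 (SE 0.16, 95% interval -0.12 to 0.61, adjusted p = 0.787, edgeR), with an exact permutation p of 0.3 (2-sided), where 3 mice against 3 cannot go below 0.1. Without LSD1-mKO replicate 1 the log2 fold change was 0.40 (adjusted p = 0.635, edgeR). With each of the 6 mice removed in turn it lay between 0.12 and 0.40. The genes whose log2 CPM followed Fndc5 most closely over the 6 libraries, among 12827 compared, were Ccnh (Pearson's r = 0.994), Arhgap10 (0.982) and Gm14827 (0.981), given as a description since all share the same libraries.

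Metrnl (chromosome 11, 121701544 to 121716306, plus strand) was 9.64, 16 and 13.1 CPM in WT and 24.9, 12.1 and 16 CPM in LSD1-mKO. LSD1-mKO replicate 1 was the highest of the 6 mice, and the other LSD1-mKO mice lay within the WT range. The log2 fold change was 0.44 (SE 0.28, 95% interval -0.19 to 1.08, adjusted p = 0.781, edgeR; exact permutation p = 0.5, 2-sided). It was 0.11 without LSD1-mKO replicate 1 and 0.67 without LSD1-mKO replicate 2 (adjusted p = 0.881 for the latter, edgeR). Ppargc1a, the coactivator upstream of Metrnl and Fndc5, was 79.7, 48.2 and 59.0 CPM in WT and 143, 58.3 and 75.5 CPM in LSD1-mKO. The same LSD1-mKO mouse was highest for Ppargc1a and Metrnl, though not for Fndc5. In WT the order was reversed, with replicate 1 the highest for Ppargc1a and the lowest for Metrnl. Within each genotype, the 3 mice stood in the same order for Metrnl as for the sum of 6 macrophage markers (51.6, 166 and 141 CPM in WT, 110, 50.8 and 74.9 CPM in LSD1-mKO) and of 4 endothelial markers (384, 576 and 479 CPM in WT, 507, 411 and 421 CPM in LSD1-mKO). Sums of fibroblast, adipocyte, Schwann, satellite, T and NK, red blood cell, fiber and denervation markers did not keep this order in both genotypes. Not every single marker kept it either. In LSD1-mKO, the endothelial Pecam1 (180, 150 and 145 CPM) and Tek (61.6, 43.2 and 37.1 CPM) were lowest in replicate 3. So was the macrophage marker Cd68 (12.2, 3.76 and 3.07 CPM), while Metrnl was lowest in replicate 2. The other macrophage and endothelial markers kept the order in both genotypes. Between genotypes, all 6 macrophage markers had a lower fitted level in LSD1-mKO (median log2 fold change -0.62), while that of Metrnl was higher. Of the 4 endothelial markers, 2 were higher and 2 lower (median -0.058). The part of macrophages and endothelial cells in the Metrnl level was not tested. The gene closest to Metrnl over the 6 libraries was Cxcl12 (r = 0.993), a chemokine of stromal and endothelial cells, followed by Plxna4 (0.985) and Iws1 (0.983).

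Ostn (chromosome 16, 27307489 to 27351212, plus strand) encodes osteocrin, or musclin, which slows the clearance of natriuretic peptides by occupying their receptor Npr3. Its level was 16.6, 19.5 and 20.4 CPM in WT and 13.8, 20 and 14 CPM in LSD1-mKO. LSD1-mKO replicates 1 and 3 lay below every WT mouse and replicate 2 lay inside the WT range. The log2 fold change was -0.24 (SE 0.17, 95% interval -0.63 to 0.14, adjusted p = 0.805, edgeR), with an exact permutation p of 0.3 (2-sided). It became -0.44 without LSD1-mKO replicate 2 (adjusted p = 0.846, edgeR). Ostn shares 184 exon bases with the antisense gene Gm32312, and whether counting used strand is not stated.

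Il15 (chromosome 8, 82331632 to 82403222, minus strand) encodes interleukin-15, a cytokine that sustains NK and memory T cells and is made by muscle fibers. It was 3.62, 3.87 and 4.09 CPM in WT and 3.26, 5.21 and 4.19 CPM in LSD1-mKO. The WT mice lay close together, with LSD1-mKO mice both below and above them. The log2 fold change was 0.13 (SE 0.23, 95% interval -0.40 to 0.65, adjusted p = 0.933, edgeR; exact permutation p = 0.7, 2-sided) and turned to -0.053 without LSD1-mKO replicate 2. Bdnf (chromosome 2, 109674700 to 109727007, plus strand) encodes brain-derived neurotrophic factor, which signals through the receptor tyrosine kinase Ntrk2. Its level was 3.74, 5.22 and 6.13 CPM in WT and 7.55, 6.01 and 3.73 CPM in LSD1-mKO. The lowest and the highest Bdnf values were both in LSD1-mKO mice. The log2 fold change of Bdnf was 0.19 (SE 0.29, 95% interval -0.47 to 0.86, adjusted p = 0.918, edgeR; exact permutation p = 0.8, 2-sided) and turned to -0.046 without LSD1-mKO replicate 1. Bdnf shares 896 exon bases with the antisense gene Gm45346.

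Gdf15 (chromosome 8, 70629393 to 70632456, minus strand) encodes a stress-induced cytokine of the TGF-β superfamily that curbs appetite through the receptor Gfral in the hindbrain. It was the myokine gene whose genotypes did not overlap, at a low level. The libraries held 2, 4 and 5 counts in WT and 20, 12 and 20 counts in LSD1-mKO, or 0.241, 0.360 and 0.444 CPM against 1.48, 0.869 and 1.86 CPM. Every LSD1-mKO mouse was above every WT mouse (exact permutation p = 0.1, 2-sided, the smallest that 3 against 3 allow), as were 5.4% of the 18840 genes fitted without a filter. Summed, 52 counts in LSD1-mKO against 11 in WT gave a ratio of 3.81 per effective library size (95% interval 1.96 to 8.09, counting error only). The filter asked for 0.91 CPM in 3 libraries, which LSD1-mKO replicate 2 missed. In the edgeR fit without a filter the log2 fold change was 1.95 (SE 0.52, 95% interval 0.83 to 3.07, adjusted p = 0.338), with an unadjusted p under 0.05. There, 3.14% of all genes were higher at an unadjusted p under 0.05 and 0.0584% passed at an adjusted p under 0.05 in either direction. With each mouse left out in turn the log2 fold change of Gdf15 stayed between 1.70 and 2.20, with adjusted p between 0.25 and 0.946 (edgeR). Gfral was listed at 0 in all 6 libraries.

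Il6 (chromosome 5, 30013114 to 30019981, plus strand) had 4, 4 and 3 counts in the WT libraries and 3 in each LSD1-mKO library. Lif (chromosome 11, 4257557 to 4272514, plus strand) had 4, 8 and 2 counts in WT and 6, 5 and 4 counts in LSD1-mKO. The ratio of summed counts, LSD1-mKO over WT per effective library size, had a 95% counting interval of 0.241 to 1.75 for Il6 and 0.388 to 1.93 for Lif. Both intervals include 1 and leave out the spread between mice. With that spread, in edgeR without a filter, the 95% interval of the log2 fold change was -2.06 to 0.92 for Il6 and -1.58 to 1.19 for Lif. A difference within these intervals is not excluded by these counts and mice. Fgf21 (chromosome 7, 45613886 to 45615490, minus strand), the fasting and stress hormone best known from liver, had 0 counts in every library. This allows a level of up to 0.217 to 0.362 CPM depending on the library.

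**Figure D3:**
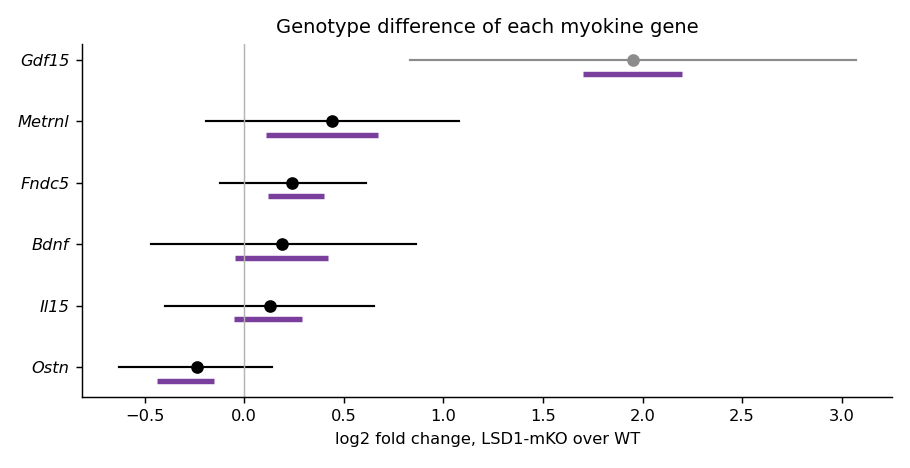
Log2 fold change, LSD1-mKO over WT, of 6 myokine genes (points) with 95% intervals (thin lines) and the range when single mice were removed in turn (purple bars), in black from edgeR with the filter and in grey, for Gdf15, without it. The interval of Gdf15 ran from 0.83 to 3.07 and those of the other 5 genes included 0.

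The receptors of the 9 proteins formed a list of 18 genes, of which 14 were tested. Of these, 0 passed at an adjusted p under 0.05 (edgeR, DESeq2 and limma voom), and at an unadjusted p under 0.05 1 was higher and 1 lower (3.52% and 2.88% of all genes tested), with a median log2 fold change of -0.037. Itgav, the integrin αV subunit through which irisin acts, was 49.5, 51.9 and 52.3 CPM in WT and 62.4, 62.5 and 73.9 CPM in LSD1-mKO (log2 fold change 0.37, SE 0.095, adjusted p = 0.534, edgeR). Its groups did not overlap, which held in this direction for 6.63% of all genes tested. The partner subunit Itgb5, the receptor gene with the highest TPM (79.6), measured 119 ± 5.89 CPM in WT and 117 ± 9.05 CPM in LSD1-mKO (SD, n = 3 each). Npr1, the natriuretic peptide receptor with guanylyl cyclase activity, was 28.6, 30.4 and 28.7 CPM in WT and 23.5, 21.2 and 20.4 CPM in LSD1-mKO (log2 fold change -0.43, SE 0.095, adjusted p = 0.382, edgeR). For Npr1 every LSD1-mKO mouse was below every WT mouse, as for 6.1% of all genes tested. Npr3, the receptor that musclin occupies, measured 123 ± 25.3 CPM in WT and 119 ± 35.4 CPM in LSD1-mKO (SD, n = 3 each).

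For the gp130 ligands, the shared subunit Il6st measured 198 ± 16.7 CPM in WT and 214 ± 9.56 CPM in LSD1-mKO (SD, n = 3 each), with log2 fold changes of 0.11 for Il6st (adjusted p = 0.86, edgeR), -0.091 for Lifr (adjusted p = 0.89, edgeR) and -0.35 for Il6ra (adjusted p = 0.85, edgeR). Il15ra, which presents interleukin-15 to neighbouring cells, was 15.6 ± 0.665 CPM in WT and 15.6 ± 0.83 CPM in LSD1-mKO (SD, n = 3 each). Ntrk2, the Bdnf receptor, had a log2 fold change of -0.027 (SE 0.26, adjusted p = 0.986, edgeR), and Kit, reported as a receptor of meteorin-like, one of -0.22 (SE 0.41, adjusted p = 0.933, edgeR). Fgfr1 was present at 97.3 ± 7.7 CPM in WT and 99.0 ± 6.54 CPM in LSD1-mKO (SD, n = 3 each), while Klb, the co-receptor that Fgf21 needs, had at most 0.178 CPM in any library.

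Among 21 relatives of the myokines, 11 were tested, 0 passed at an adjusted p under 0.05 (edgeR, DESeq2 and limma voom), and the median log2 fold change was -0.13. At an unadjusted p under 0.05 1 was higher and 0 were lower (3.52% and 2.88% of all genes tested). This was Fgf1, a local fibroblast growth factor and the relative with the highest TPM (58.4), at 97.6, 89.2 and 96.2 CPM in WT and 108, 101 and 138 CPM in LSD1-mKO (log2 fold change 0.30, SE 0.12, adjusted p = 0.766, edgeR). The cytokines Osm and Il11 of the gp130 family were at most 0.267 and 0.370 CPM in any library. A further list of 34 secreted factors of muscle had 25 tested genes and a median of -0.17, with 0 past an adjusted p under 0.05 (edgeR, DESeq2 and limma voom), and 0 higher and 3 lower at an unadjusted p under 0.05 (3.52% and 2.88% of all genes tested). The 3 were the matrix genes Sparc (1001 ± 330 CPM in WT, 621 ± 203 CPM in LSD1-mKO) and Postn (305 ± 166 CPM against 114 ± 76.1 CPM), and the growth factor Mdk (2.76 ± 0.423 CPM against 1.49 ± 0.821 CPM; SD, n = 3 each). Sparc and Postn followed the fibroblast markers given above, highest in WT replicates 2 and 3 and next in LSD1-mKO replicate 1, and the part of fibroblast content was not tested. Dcn, the list's most abundant gene at 830 TPM, had a log2 fold change of -0.042 (SE 0.24, adjusted p = 0.868, edgeR).

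**Figure D4:**
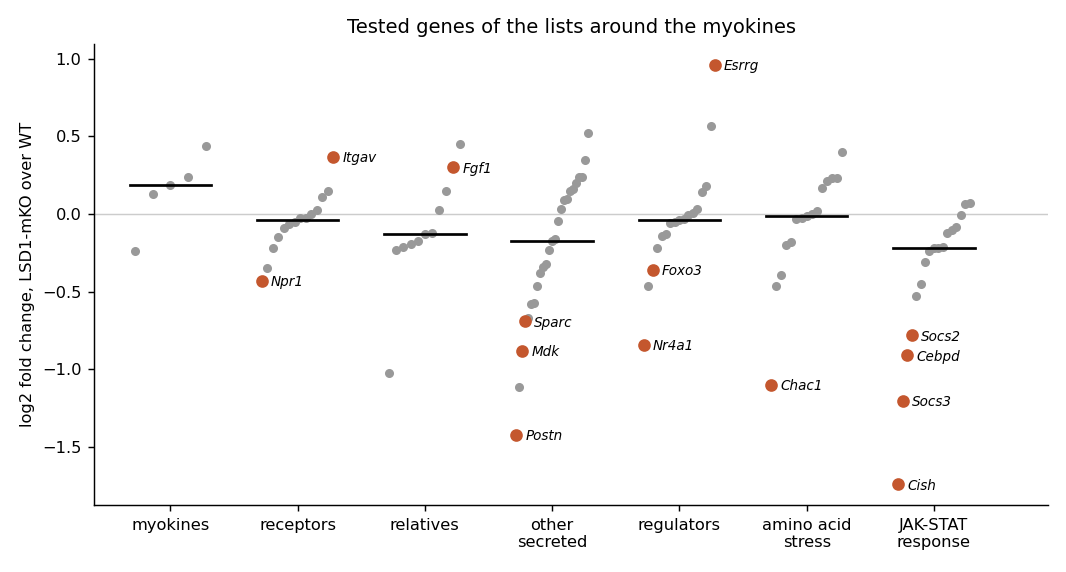
Log2 fold change, LSD1-mKO over WT, of every tested gene in the myokine list and 6 lists around it (points), with each list's median as a line and genes at an unadjusted p under 0.05 in orange with their symbols. The medians lay between -0.22 for the JAK-STAT response and 0.19 for the myokines, beside -0.02 over all genes tested.

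Of 17 transcription factors and coactivators that act on myokine genes, 0 passed at an adjusted p under 0.05 with edgeR or limma voom, and at an unadjusted p under 0.05 1 was higher and 2 were lower (3.52% and 2.88% of all genes tested), with a median log2 fold change of -0.04. The higher gene was Esrrg, the estrogen-related receptor γ, at 147, 125 and 116 CPM in WT and 267, 208 and 282 CPM in LSD1-mKO (log2 fold change 0.96, SE 0.14, adjusted p = 0.162, edgeR). Its adjusted p was 1.79e-06 with DESeq2, which called 0.327% of all genes, and 0.0111 in edgeR without a filter. The lower genes were Foxo3 (-0.36, SE 0.16, adjusted p = 0.766, edgeR) and the exercise-induced Nr4a1 (-0.84, SE 0.36, adjusted p = 0.766, edgeR), while Ppargc1a had 0.57 (SE 0.32, adjusted p = 0.777, edgeR). Foxo1, a repressor of Ostn, measured 105 ± 55.6 CPM in WT and 76.0 ± 24.7 CPM in LSD1-mKO (SD, n = 3 each). Mef2c was the most abundant of the list at 279 TPM, with a log2 fold change of 0.14 (adjusted p = 0.827, edgeR).

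Gdf15 and Fgf21 belong to the amino acid stress response driven by ATF4. Of 16 other genes of this response, 15 were tested, 7 with a fitted level higher in LSD1-mKO and 8 lower, and their median log2 fold change was -0.011. By edgeR, DESeq2 and limma voom 0 passed at an adjusted p under 0.05, and at an unadjusted p under 0.05 0 were higher and 1 was lower (3.52% and 2.88% of all genes tested). That gene was Chac1, which degrades glutathione, at 64.1, 39.3 and 64.9 CPM in WT and 20.6, 40.7 and 16.7 CPM in LSD1-mKO (log2 fold change -1.10, SE 0.33, adjusted p = 0.607, edgeR). Its fitted direction was opposite to that of Gdf15, and neither gene passed at an adjusted p under 0.05. The part of ATF4 in either level was not tested. Atf4 had a log2 fold change of -0.048 (SE 0.11) and Ddit3, or CHOP, one of 0.031 (SE 0.16). Vldlr, the most abundant gene of the list at 74.6 TPM, had a log2 fold change of 0.21 (SE 0.14, adjusted p = 0.805, edgeR).

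The list of JAK-STAT components and response genes held 18 genes, of which 17 were tested, 2 with a higher and 15 with a lower fitted level in LSD1-mKO, and their median log2 fold change was -0.22. Of all genes tested, 45.2% had a higher fitted level. Here edgeR and limma voom called 0, and at an unadjusted p under 0.05 0 were higher and 4 were lower, where 2.88% of all genes tested were lower. Cish, a feedback inhibitor best known as a target of STAT5, was 16.8, 13.4 and 32.9 CPM in WT and 6.36, 6.66 and 5.87 CPM in LSD1-mKO. Every WT mouse was above every LSD1-mKO mouse, as for 6.1% of all genes tested. The LSD1-mKO mice lay close together, and the log2 fold change was -1.74 (SE 0.32, adjusted p = 0.281, edgeR). The adjusted p of Cish was 5.38e-05 with DESeq2, which called 0.327% of all genes. In edgeR without a filter, where 0.0584% of all genes passed, the adjusted p of Cish was 0.0292. Socs3, the feedback inhibitor of gp130, was 4.46, 4.86 and 13.5 CPM in WT and 4.29, 2.46 and 3.26 CPM in LSD1-mKO (log2 fold change -1.20, SE 0.45, adjusted p = 0.723, edgeR). Socs2, a target of growth hormone and STAT5, was 20.3, 12.5 and 36.5 CPM in WT and 13.9, 11.2 and 15.4 CPM in LSD1-mKO (log2 fold change -0.78, SE 0.34, adjusted p = 0.766, edgeR). WT replicate 3 held the highest value of Cish, Socs3 and Socs2, and without that mouse the log2 fold changes were -1.25 for Cish, -0.48 for Socs3 and -0.27 for Socs2. Cebpd, a transcription factor of the acute-phase response, was 145, 64.3 and 118 CPM in WT and 54.3, 51.8 and 67.9 CPM in LSD1-mKO (log2 fold change -0.91, SE 0.26, adjusted p = 0.578, edgeR). Cebpb, the most abundant gene of the list at 253 TPM, had a log2 fold change of -0.31 (SE 0.16, adjusted p = 0.773, edgeR). Stat3 and Jak1 had log2 fold changes of -0.081 (SE 0.10) and 0.071 (SE 0.083).

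**Figure D5:**
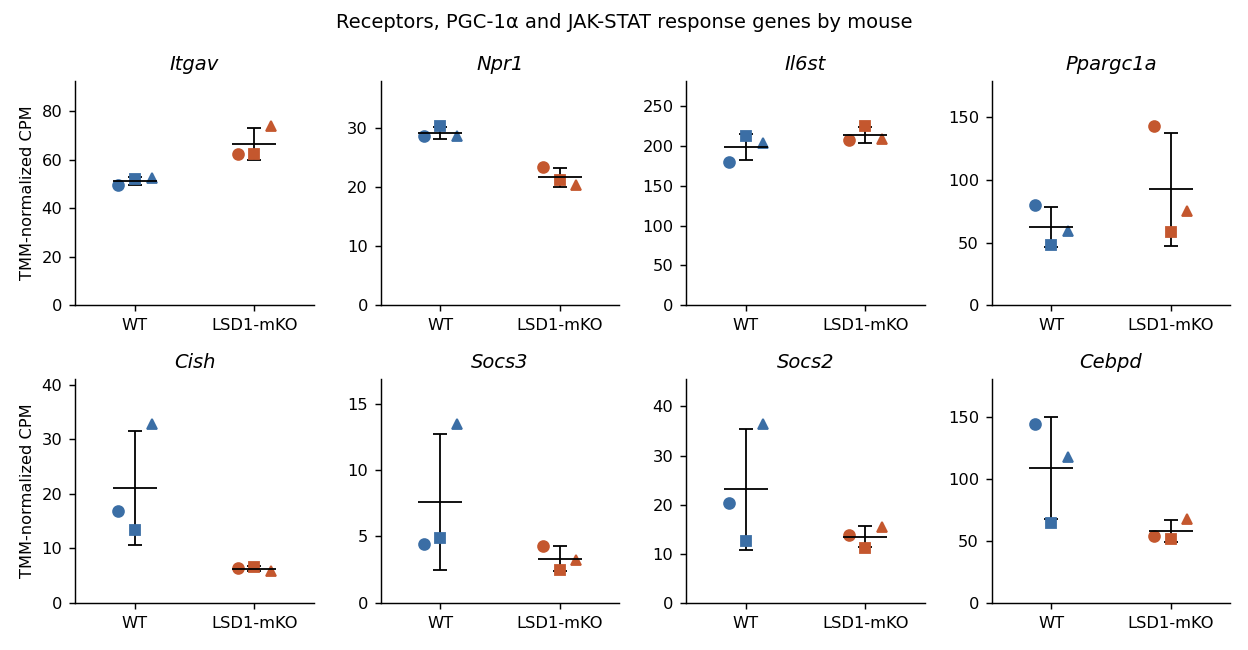
TMM-normalized CPM of 2 receptors (Itgav, Npr1), the shared gp130 subunit Il6st, Ppargc1a and 4 JAK-STAT response genes, 1 point per mouse (circle, square and triangle for replicates 1 to 3), with the mean and SD of 3 mice per genotype and axes from 0. Cish lay at 13.4 CPM or more in WT and at 6.66 CPM or less in LSD1-mKO, and Il6st overlapped between the genotypes.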

How the data were processed

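Whole Sol muscle RNA was sequenced as 75-base single-end poly(A) libraries, 1 per mouse. The authors aligned the reads with STAR to mm10 and deposited estimated counts per gene, of which 8.33% to 9.94% per library are not whole. The counting tool, annotation and strand setting are not given in the sources used here. A second deposited table holds the authors' own DESeq2 comparison (fold changes and p-values) and was not used. The 6 columns were matched to the mice by the number that opens each sample title.

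Counts were rounded and fitted over the whole table with edgeR 4.0.16 in R 4.3.3 (TMM, filterByExpr by genotype, quasi-likelihood test), with Benjamini-Hochberg adjustment over 12828 genes and a threshold of 0.05. Members left out by the filter take their values from the fit without it (18840 genes). SE is the log2 fold change over the square root of F. TPM used the longest protein-coding transcript of GENCODE M21. DESeq2 1.42.0, limma 3.58.1 (voom), other scalings, a replicate block and each mouse left out in turn were alternatives. Running the alternatives without the filter for the low genes was chosen after seeing the data. The steps were tested on simulated data. For each member, an exact permutation test of CPM over the 10 splits of the mice into 3 and 3 was added.

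The members and gene lists were chosen with earlier results of these data known. The genes named are the 9 members, list genes at an unadjusted p under 0.05, receptors, the list gene with the highest TPM, and the 3 genes closest to Metrnl (smallest p of the tested members) and to Fndc5 (highest TPM). Stat3, Jak1, Atf4, Ddit3, Foxo1, Ppargc1a, Osm, Il11 and the fiber genes Myh7, Myh1, Myh4, Tnnt3, Tnnt1 and Actn3 fall outside this rule and were named after their values were seen. The macrophage and endothelial sums set beside Metrnl were also picked after their values were seen. Kdm1a is named as the check of the genotype labels, and Esr1 as the other gene past the threshold. Intervals of fold changes from edgeR include the spread between mice. Intervals of summed counts and floors cover counting error only and leave out that spread. They also treat every read as a separate molecule, which copies made by PCR are not, so they can be too narrow. All pairs of libraries of 1 genotype differed by more than sampling noise (chi-square per gene at least 9.88). The mice carry the same replicate numbers in both genotypes, but deviations of same-numbered mice correlated at -0.352, -0.107 and -0.15, and no label ties the numbers to a litter or day.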

Additional observations from a re-analysis of the deposited data

How the results depend on the processing

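In each of the 14 alternatives run over the whole list, 0 myokine genes passed the threshold. In 12 further alternatives without a filter, run for Gdf15, Il6 and Lif, the lowest adjusted p was 0.25. In all, 103 of 106 comparisons of 8 myokine genes with an alternative kept the direction. The other 3 reversed: Il15 to -0.053 without LSD1-mKO replicate 2 (up to 0.29 without another mouse), Bdnf to -0.046 without LSD1-mKO replicate 1 (up to 0.42 without another mouse), and Lif, at or near the floor of counts, to 0.33 without WT replicate 2 and without a filter. DESeq2 without a filter gave no adjusted p for Gdf15, Il6 and Lif, so their calls are not counted there. Over all genes, the count higher in LSD1-mKO was 1 in edgeR (Esr1), 33 with DESeq2, 2 with limma voom and 8 without a filter. It was 1 to 2 with a mouse left out (2 without WT replicate 1). The count lower in LSD1-mKO was 1 in edgeR (Kdm1a), 9 with DESeq2 and 3 without a filter. It was 0 to 1 with a mouse left out (0 without WT replicate 2 or without LSD1-mKO replicate 1, 2 or 3). With the replicate number as a block, 1 gene was higher and 0 were lower in edgeR, with 322 higher and 228 lower at an unadjusted p under 0.05, and Kdm1a had an adjusted p of 0.299. No label pairs the mice by these numbers, and the block changed the call of no myokine gene. Kdm1a also missed the threshold without WT replicate 2 or without any 1 of the LSD1-mKO mice, with adjusted p from 0.111 to 0.209, while its log2 fold change stayed between -1.26 and -1.17 there and was -1.23 with the block. The cause of these changes was not tested. Beside the floor of 3 counts, Il6 had 3 to 4 counts a library, Lif had 2 to 8 and Fgf21 had 0. Gdf15 rested on 2 to 20 counts a library. The part of sequencing depth in these low counts was not tested.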
